A study of Mus musculus with 20 samples.

Results

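The comparison described here is the first week of growth of the mouse plantaris tendon in the control genotype. It sets the 4 libraries of WT day 7 against the 4 of WT day 0, which are 8 of the 20 libraries of the series, chosen by their labels and described across all genes. All 8 came from mice labelled ScxCreERT2-/- IGF1Rflox/flox, whose Igf1r alleles carry flox sites and which lack CreERT2, the recombinase that tamoxifen activates, so no recombinase was present to delete Igf1r in either group. WT day 0 mice had no growth stimulus and no tamoxifen, whereas WT day 7 mice had a growth stimulus for 7 days and tamoxifen. The effects of the stimulus and of tamoxifen therefore cannot be told apart in any result below. The labels used here give neither age nor sex, name the tissue as plantaris tendon, and do not tell whether each replicate is its own animal. The p-values of single genes therefore reflect how far the 20 libraries of the series scatter within their groups, and that scatter may be technical. Those of ratios rest on the 8 libraries alone. The other 12 libraries (WT day 14, and ScxCreERT2+/+ IGF1Rflox/flox mice at day 7 and day 14, called KO, all with tamoxifen and the stimulus) entered the fit to share 1 estimate of the spread.

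Tendon is a cable of fibrillar collagen, mainly type I, made and maintained by tenocytes, fibroblasts that divide rarely in the adult. The cable is wrapped in thin sheaths of looser tissue that hold vessels, nerves, resident macrophages and progenitor fibroblasts, and it joins skeletal muscle at one end. When a tendon is loaded beyond its habit, cells of the outer layers are known to divide and to lay down new matrix around the old core. Tamoxifen binds the oestrogen receptor and acts as an agonist or an antagonist depending on the tissue.

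Each library held between 32254411 and 59455812 counts, and 18918 of 24885 genes passed the filter on low counts. Levels are given as CPM, counts brought to a common library size with TMM scaling, differences as log2 fold changes of day 7 over day 0 with their standard error (SE), and adjusted p-values are Benjamini-Hochberg values of edgeR's quasi-likelihood test over all genes. The SE was derived from the fold change and the statistic of that test, so it rests on the spread over all 20 libraries. A gene was called at an adjusted p below 0.05. On that rule 12133 genes, or 64.1% of those tested, were called, 32.3% higher and 31.8% lower. A stricter edgeR test asked whether the change exceeded 2-fold, and 3794 genes (20.1%) passed it, 8.94% higher and 11.1% lower. These shares are the background for every gene group below, and the median log2 fold change over all genes was 0.02. For 11461 of the 18918 genes tested the day 0 and day 7 libraries did not overlap. A lack of overlap, given for single genes below, is therefore shared by most genes. Among called genes, 1104 rose and 1509 fell at least 4-fold, and 240 rose and 474 fell at least 16-fold. Of 3973 genes with a mean of at least 50 CPM, 2617 had a 95% interval of the log2 fold change that stayed within 1 of 0. Ncor1, a nuclear corepressor, stood at 148, 139, 140.1 and 145 CPM at day 0 and 147, 134, 140.4 and 146 CPM at day 7, with a 95% interval from -0.13 to 0.11 on the log2 scale.

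In a principal component analysis, the leading axis (84.1% of the variance) split day 0 from day 7, while the next (3.8%) set WT day 7 replicate 1 apart from the other day 7 libraries. The 28 skeletal muscle fibre markers took 3.54% to 8.16% of counts at day 0 and, at day 7, 0.0551% in replicate 3 and 0.22% to 0.333% in the others. When their mean log2 CPM was added to the fit as a covariate, 7179 genes were called and 1890 passed beyond 2-fold. The part of muscle RNA in the remaining calls was not tested, and the counts of a described list are given with this covariate too where a count of 3 or more moves by over 1.5 times. Fold changes of single genes are those without it unless stated, and it moved 55 of the 258 named genes by over 1.5 times. Of the genes named below, Col1a2, Mmp2, Plau, Pdgfra, Tpm2, Ctgf, Nog, Grem1, Wnt5a, Wnt16, Erbb3, Lyve1, Cd3e, Cyp1a1, Nfil3, Nctc1 and Gapdh were called here but not with the covariate. Since these are bulk libraries, fewer cells of a type and less RNA per cell cannot be told apart. The tenocyte genes Scx (a transcription factor), Tnmd (a membrane protein of mature tenocytes) and Col1a1 were present in all 8 libraries, at no less than 31.4, 152 and 7257 CPM.

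Outside the gene groups, the rises with the smallest p of the test beyond 2-fold included Dclk1, a microtubule-binding kinase, Cxcr4, the receptor of the chemokine Cxcl12, Tfpi2, a secreted inhibitor of serine proteases, and Fkbp11, a folding enzyme of the secretory pathway. Dclk1 stood at 17.8, 17.4, 17.6 and 13.4 CPM in the day 0 libraries and 255, 234, 218 and 226 CPM in the day 7 libraries. Cxcr4 stood at 3.98, 4.31, 3.12 and 4.31 CPM and then 60.4, 55.3, 43.2 and 59.3 CPM. Every day 7 library was above every day 0 library for both, with log2 fold changes of 3.82 ± 0.13 and 3.79 ± 0.14 (SE, n = 4 per group, edgeR adjusted p = 8.27e-14 and 2.9e-13). Tfpi2 and Fkbp11 rose by 4.33 and 3.66. By the gain in level per kilobase, the leading genes beside collagen and periostin were Lyz2, lysozyme of myeloid cells (1.67), Apoe, a lipid carrier (2.02), Lgals1, galectin 1 (1.34), Bgn, biglycan (1.38), and Fstl1, a secreted glycoprotein of mesenchyme (1.99). Among the falls, Ostn, a peptide hormone of muscle and bone, stood at 44.9, 40.8, 59.3 and 59.2 CPM at day 0 and 0.0722, 0.22, 0.194 and 0.0761 CPM at day 7. Myoc, myocilin, stood at 8933, 9722, 6741 and 7095 CPM and then 154, 161, 261 and 350.4 CPM. The groups did not overlap for either gene, and the log2 fold changes were -8.49 ± 0.39 and -5.13 ± 0.64 (SE, n = 4 per group, edgeR adjusted p = 6.6e-12 and 2.4e-06). The survival factor Bcl2 fell (-2.56), as did Cpe, a protease that trims peptide hormones (-3.13), and Aldh6a1, of valine breakdown (-2.23). By the loss in level per kilobase, genes of the mitochondrial genome led. Mitochondrial genes took 4.85% to 7.76% of counts at day 0 and 1.29% to 1.71% at day 7, and the part of muscle RNA in this was not tested. Under the muscle covariate Ostn was at -7.23, Myoc at -5.74, Bcl2 at -2.67 and Dclk1 at 3.72.

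**Figure D1:**
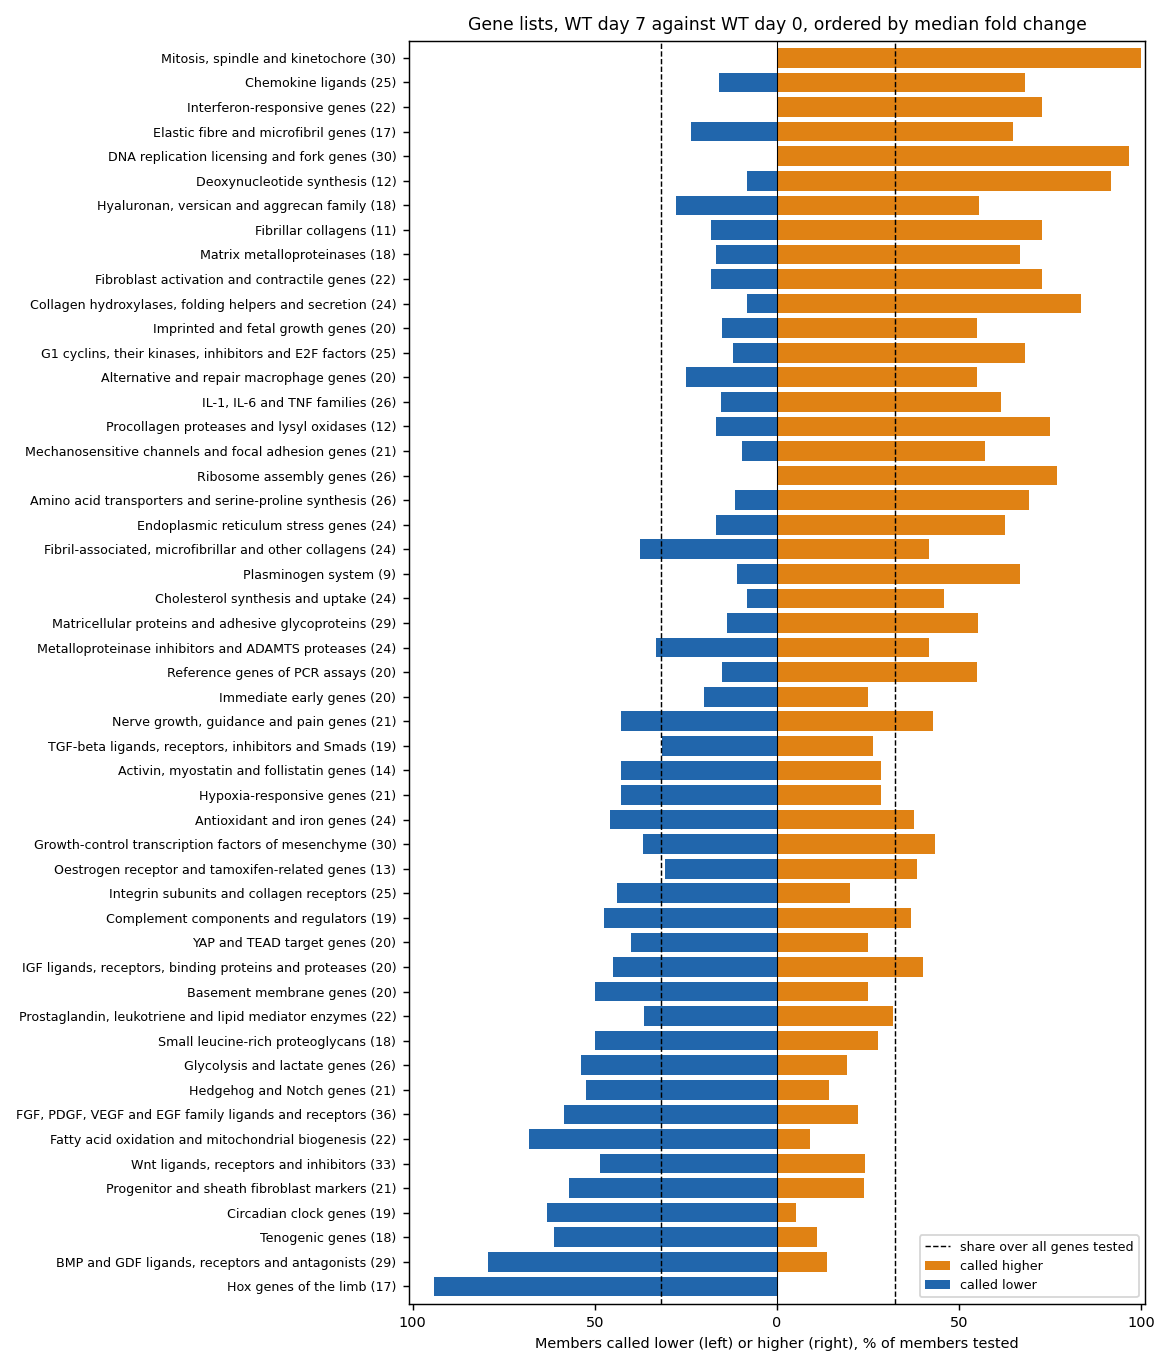
Share of tested members of each gene list called higher (right, orange) and lower (left, blue) at WT day 7 against WT day 0, with n tested in brackets; the dashed lines mark the shares over all genes, 32.3% and 31.8%. All 30 mitosis genes were higher, and 16 of 17 limb patterning genes were lower.

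Genes that drive cells through division rose together. All 30 genes of mitosis, the spindle and the kinetochore were called higher, and all 30 passed beyond 2-fold, with a median log2 fold change of 3.73. Cdk1 (chromosome 10), the kinase that starts mitosis, stood at 2.45, 2.59, 1.81 and 2.43 CPM in the day 0 libraries and 58.6, 53.2, 47.1 and 40.8 CPM in the day 7 libraries. Every day 7 library was above every day 0 library, and the log2 fold change was 4.43 ± 0.25 (SE, n = 4 per group, edgeR adjusted p = 9.14e-11). The spindle motor Kif2c rose by 4.82, the kinetochore motor Cenpe by 4.44 and the anaphase activator Cdc20 by 3.7. The weakest of the 30 was the checkpoint protein Mad2l1, at 2.29. DNA replication genes rose too. Of 30 licensing and fork genes 29 were called higher, 18 of them beyond 2-fold, with a median of 1.46, and Rpa2, of the single-strand binding complex, was not called (0.25), though it was without WT day 7 replicate 4 (edgeR adjusted p = 0.0355) and with the muscle covariate (0.51). Within the MCM helicase the subunits ranged from 0.93 for Mcm7 to 2.71 for Mcm5. In deoxynucleotide synthesis 11 of 12 genes rose. The S-phase subunit of ribonucleotide reductase, Rrm2, was at 3.31, and its p53-driven counterpart Rrm2b fell (-1.17).

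Upstream of replication the cyclins parted. Ccne1, cyclin E of the G1 to S transition, stood at 0.673, 0.683, 0.604 and 0.385 CPM at day 0 and 8.88, 12.4, 10.1 and 9.51 CPM at day 7. The groups did not overlap, and the log2 fold change was 4.11 ± 0.27 (SE, n = 4 per group, edgeR adjusted p = 2.36e-10). Ccnd1, the D-type cyclin that growth factors induce, stood at 49, 57, 44.5 and 47 CPM at day 0 and 52.7, 60.7, 76.1 and 53.1 CPM at day 7, with overlapping groups and a log2 fold change of 0.3 ± 0.15 that was not called (edgeR adjusted p = 0.0854, n = 4 per group). The ratio of Ccnd1 to Ccnd2 per kilobase of exon was 0.837, 1.03, 0.916 and 0.987 at day 0 and 0.798, 0.883, 1.08 and 0.803 at day 7 (two-sided exact permutation p = 0.514, n = 4 per group, adjusted p = 0.514 over the 8 ratios tested). Of 25 G1 regulators 17 rose, 3 fell and 5 were not called. E2f8 and E2f7, repressors made in S phase, rose by 2.73 and 2.6, and Myc rose by 1.55. The inhibitor Cdkn2a (p16 and p19) rose by 2.32 and its neighbour Cdkn2b by 1.8, Cdkn1b (p27) fell (-0.41), and Cdkn1a (p21) was not called (-0.32).

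Promoters of 2 mitosis and 2 replication genes are shown here as examples, because the members of each list moved together. The examples all hold matches of motifs searched, whereas some members of each list held none. RefSeq promoters (GRCm38.p6, 250 bases before to 50 after the start) were found for 25 of the 30 mitosis genes, 24 of the 30 replication genes and 13017 of all genes tested. They were searched on both strands for the cell cycle homology region or CHR (TTTGAA or TTCGAA), the CCAAT box (CCAAT), and the E2F site (TTTCCCGC, TTTCGCGC, TTTGCCGC or TTTGGCGC). No match of one motif overlapped a match of another in the sequences shown, though in Mcm6 a pair of E2F matches on opposite strands overlap each other. The 160 bases before the start, 5′ to 3′, with matches in capitals (a match on the opposite strand appears as its reverse complement), are as follows.
Cdk1 (chr10:69352913-69353072, minus strand): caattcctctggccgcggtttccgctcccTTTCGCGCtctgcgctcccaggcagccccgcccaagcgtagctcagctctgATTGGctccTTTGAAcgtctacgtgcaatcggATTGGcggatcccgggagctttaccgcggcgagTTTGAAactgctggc
Top2a (chr11:99024190-99024349, minus strand): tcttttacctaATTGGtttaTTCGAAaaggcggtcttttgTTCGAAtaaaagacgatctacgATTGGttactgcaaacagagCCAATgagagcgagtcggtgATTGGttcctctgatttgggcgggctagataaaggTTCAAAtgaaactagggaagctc
Mcm6 (chr1:128359706-128359865, minus strand): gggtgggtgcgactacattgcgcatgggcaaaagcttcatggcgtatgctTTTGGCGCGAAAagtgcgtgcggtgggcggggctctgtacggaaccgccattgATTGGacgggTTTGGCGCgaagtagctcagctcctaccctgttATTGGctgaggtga
Orc1 (chr4:108579294-108579453, plus strand): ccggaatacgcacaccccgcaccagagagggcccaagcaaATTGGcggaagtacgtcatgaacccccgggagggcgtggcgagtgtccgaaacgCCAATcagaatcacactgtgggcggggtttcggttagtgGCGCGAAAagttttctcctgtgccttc

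In these windows the mitotic genes Cdk1 and Top2a held CHR elements and CCAAT boxes, with 1 E2F site in Cdk1, and the replication genes Mcm6 and Orc1 held E2F sites and CCAAT boxes. Over the whole promoter, a CHR element was present in 80.0% of the mitosis genes, 25.0% of the replication genes and 14.4% of all genes tested. An E2F site was present in 4.0%, 54.2% and 3.63%, and a CCAAT box in 76.0%, 70.8% and 37.8%. Among genes higher beyond 2-fold 23.0% held a CHR element, against 13.6% of genes lower beyond 2-fold. A match describes letters and does not show that a factor binds there.

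Collagen genes changed unevenly. Of 11 fibrillar collagen genes 8 rose and 2 fell, and of 24 other collagens 10 rose and 9 fell. Col3a1, which makes the thin fibrils of young and healing tissue, stood at 5821, 6696, 5800 and 5544 CPM at day 0 and 34210, 34210, 34490 and 37370 CPM at day 7. Col1a1, the main chain of tendon, stood at 7861, 8155, 7257 and 8268 CPM and then 17350, 17360, 22450 and 20940 CPM. Neither gene's groups overlapped, and the log2 fold changes were 2.56 ± 0.14 and 1.31 ± 0.25 (SE, n = 4 per group). Per kilobase of exon, the ratio of Col3a1 to Col1a1 was 0.495, 0.549, 0.534 and 0.448 at day 0 and 1.32, 1.32, 1.03 and 1.19 at day 7, a rise of 2.39-fold (two-sided exact permutation p = 0.0286, the smallest that 70 arrangements allow, adjusted p = 0.0381 over 8 ratios, n = 4 per group). Col1a2, whose protein pairs with that of Col1a1, rose by 0.56, less than Col1a1 in these estimates, though that difference was not tested. Col5a1 and Col5a2, which start fibrils, rose by 2.12 and 2.1. Col22a1, a collagen of the junction between muscle and tendon, fell (-5.71, or -3.02 with the muscle covariate). Col12a1 and Col14a1, which coat fibrils, rose by 1.96 and 1.77, and their ratio changed by 0.19 on the log2 scale (exact permutation p = 0.343, n = 4 per group, adjusted p = 0.392).

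Enzymes that modify and export collagen mostly rose: 20 of 24 were higher and 2 lower, with a median of 1.19. P4ha3, a catalytic subunit of prolyl hydroxylase, stood at 8.99, 10.8, 11.1 and 9.27 CPM at day 0 and 135, 130, 121 and 129 CPM at day 7. The day 7 libraries were all above the day 0 libraries, with a log2 fold change of 3.67 ± 0.12 (SE, n = 4 per group, edgeR adjusted p = 4.2e-14). Its paralogue P4ha2 rose by 1.27 and P4ha1 was not called (0.03). P3h2, a prolyl 3-hydroxylase, and Colgalt2, which adds galactose to collagen, fell (-1.75 and -1.91), while their paralogues P3h1 and Colgalt1 rose by 1.95 and 1.22. Lox and Loxl1, which crosslink collagen and elastin, rose by 1.42 and 1.44, and Loxl4 fell (-1.29).

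Elastic fibre genes mostly rose: of 17 such genes 11 were higher and 4 lower. Fbn2, a fibrillin known from development, stood at 1.62, 1.99, 2.19 and 2.65 CPM at day 0 and 186, 129, 130.1 and 111 CPM at day 7. All day 7 libraries were above all day 0 libraries, and the log2 fold change was 6.04 ± 0.24 (SE, n = 4 per group, edgeR adjusted p = 1.1e-12). Fbn1, the adult fibrillin, rose by 1.62. The ratio of Fbn2 to Fbn1 per kilobase thus went from 0.00202 to 0.00347 at day 0 to between 0.0422 and 0.0875 at day 7, 21.5-fold higher (exact permutation p = 0.0286, n = 4 per group, adjusted p = 0.0381), with Fbn1 still the more abundant. Elastin, Eln, rose by 2.79 and the microfibril protein Mfap4 by 2.95. Fbln1 and Ltbp4, which bind elastic fibres, fell (-3.28 and -2.56).

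The balance of the tenascins changed. The ratio of Tnc, the tenascin of growing and injured tissue, to Tnxb, the tenascin that ties collagen fibrils in the resting tissue, was 0.164 to 0.21 at day 0 and 12.4 to 29.0 at day 7 (102-fold, exact permutation p = 0.0286, n = 4 per group, adjusted p = 0.0381). Tnn, a tenascin of bone and tendon surfaces, rose by 4.99. Among 29 matricellular genes 16 rose and 4 fell. Postn, periostin, rose by 6.09 ± 0.26 (SE, n = 4 per group) from 141, 114, 108 and 191 CPM to 12060, 9094, 7173 and 9596 CPM, and Wisp1, of the CCN family, rose by 4.88. Its relatives Cyr61 and Nov were not called (0.17 and 0.07), nor were Thbs4 and Cilp (-0.2 and -0.25). Comp, the pentameric binder of collagen, fell (-2.21), as did Cilp2 (-4.18).

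The small leucine-rich proteoglycans, which coat and space collagen fibrils, split. Of 18, 5 rose, 9 fell and 4 were not called. Dcn, decorin, stood at 17800, 19940, 14640 and 14630 CPM at day 0 and 3941, 4163, 4450 and 4781 CPM at day 7, and Fmod, fibromodulin, at 5226, 6208, 5598 and 5563 CPM and then 1227, 1411, 1541 and 1694 CPM. Both were lower in every day 7 library, by -1.95 and -1.94 on the log2 scale. Chad, chondroadherin, fell most (-5.31), followed by Omd (-3.19) and Prelp (-2.35). Lum, lumican, rose by 1.7 and Bgn, biglycan, by 1.38. Chad also stands in the list of chondrocyte markers, of which 5 of 16 tested rose and 5 fell (5 and 2 with the muscle covariate). Their summed level went from between 11200 and 16100 CPM to between 1810 and 2160 CPM. Chad and Comp made up most of the day 0 sum, with means of 8633 and 4629 CPM, against 217 and 997 CPM at day 7. The fall of the sum is therefore not that of the other members, and the part of cartilage cells was not tested. Among the large proteoglycans, Acan stood at 7.18, 11.9, 9.39 and 6.81 CPM at day 0 and 259.5, 206, 172 and 177 CPM at day 7, with no overlap and a log2 fold change of 4.52 ± 0.42 (SE, n = 4 per group, edgeR adjusted p = 6.54e-08). Vcan rose by 1.9, and the ratio of Vcan to Acan per kilobase fell from between 6.82 and 14.4 to between 1.24 and 1.86 (exact permutation p = 0.0286, n = 4 per group, adjusted p = 0.0381). Of 20 basement membrane genes 5 rose and 10 fell, with Lamb1 at 3.05, its paralogue Lamb2 at -1.83, and Lamc3 at -4.19.

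Matrix-degrading enzymes rose and their inhibitors parted. Of 18 metalloproteinases 12 rose and 3 fell, or 9 and 1 with the muscle covariate. The collagenases Mmp13 and Mmp8 rose by 5.37 and 5.02, the gelatinase Mmp9 by 5.68 and the membrane-bound Mmp14 by 2.06, while Mmp2 rose by 0.82. Mmp10, stromelysin, had no counts in any day 0 library and 81 counts at day 7, at least 20.9-fold higher against a floor of 3 counts over the group. Timp1 stood at 44.1, 60.5, 21.3 and 21.2 CPM at day 0 and 344, 528, 336 and 428 CPM at day 7. Timp3, which stays bound to matrix, stood at 1566, 1537, 1033 and 1156 CPM and then 168, 141, 187 and 189 CPM. The groups did not overlap for either inhibitor, whose log2 fold changes were 3.48 ± 0.39 and -2.95 ± 0.2 (SE, n = 4 per group). Timp4 fell (-4.9) and Timp2 fell (-1.01). Adamts4, an aggrecan-cleaving protease, rose by 3.36 and its relative Adamts5 fell (-1.49). Of 9 genes of the plasminogen system 6 rose and 1 fell, or 3 and 1 with the muscle covariate, and Plau, a plasminogen activator, rose by 0.99. Neutrophil markers, to which Mmp8 belongs, rose in 6 of 8 cases, with a summed level of 17.1 to 19.7 CPM at day 0 and, at day 7, 84.0 CPM in replicate 1 and 131 to 164 CPM in the others, and their part in the Mmp8 value was not tested.

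The identity genes of tendon mostly fell or were not called. Of 18 tenogenic genes 11 fell, 2 rose and 5 were not called, with a median of -1.14. Scx stood at 40.8, 45.8, 35.5 and 31.4 CPM at day 0 and 57.1, 52.8, 44.8 and 47.2 CPM at day 7. Its groups overlapped, and it was not called (log2 fold change 0.4 ± 0.27, edgeR adjusted p = 0.214, n = 4 per group). Tnmd stood at 212, 182, 158 and 181 CPM and then 370, 154, 152 and 179.7 CPM, and WT day 7 replicate 1 lay above the range of all the others (log2 fold change 0.22 ± 0.27, edgeR adjusted p = 0.488, n = 4 per group). Mkx, a homeodomain factor needed for fibril growth, fell (-1.04), as did Six2 (-2.0). Of 21 markers of progenitor and sheath fibroblasts 12 fell and 5 rose. Gsn, gelsolin, stood at 19080, 19930, 16890 and 17500 CPM at day 0 and 745, 1140, 1341 and 1326 CPM at day 7. Every day 7 library was below every day 0 library (log2 fold change -4.01 ± 0.27, edgeR adjusted p = 2.83e-10, n = 4 per group). Igfbp6 fell (-2.52), as did Tppp3 (-1.98) and Clec3b (-2.93), while Pdgfra rose by 0.31 and Pdgfrb was not called (-0.03). The Pdgfra call was lost when any 1 library other than WT day 0 replicate 2 or WT day 7 replicate 1 was left out (edgeR adjusted p from 0.00213 to 0.149 over the 8 omissions). Of 7 synovial lining markers 5 fell, with a summed level of 4120 to 5020 CPM at day 0 and, at day 7, 1140 CPM in replicate 1 and 3050 to 3544 CPM in the others, and their part in the sheath values was not tested.

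Activated fibroblast genes rose in 16 of 22 cases. Lrrc15 stood at 3.03, 3.2, 4.56 and 3.83 CPM at day 0 and 335, 338, 282 and 395 CPM at day 7, and Adam12, a membrane protease, at 3.46, 2.88, 2.48 and 1.76 CPM and then 318, 292, 246 and 312 CPM. For both genes the groups lay far apart. Acta2, smooth muscle actin, rose by 2.58, and cadherin 11, Cdh11, rose by 3.18. The smooth muscle genes Lmod1, Tpm1 and Tpm2 fell (-3.17, -3.4 and -3.12), and both tropomyosins are also made by skeletal muscle fibres. Of 21 mechanosensitive and focal adhesion genes 12 rose and 2 fell, with Fhl2 at 3.41 and Actn1 at 1.5. The stretch-gated channels Piezo1 and Piezo2 were not called (-0.03 and 0.02). Of the YAP target genes 5 of 20 rose and 8 fell, or 2 and 8 with the muscle covariate, and Ctgf rose by 0.6 while Ankrd1 was not called (-0.89, or 2.3 and called with the muscle covariate). The Ctgf call was likewise lost without any 1 library other than WT day 0 replicate 2 or WT day 7 replicate 1 (edgeR adjusted p from 0.0435 to 0.0761).

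Limb patterning genes fell as a group. Hox genes encode transcription factors that keep a record of position along the body and limb, and adult fibroblasts go on making them. Of 17 genes listed, 15 Hox genes with the hindlimb factors Tbx4 and Pitx1, 16 were lower and none higher, 10 of them beyond 2-fold, and the median was -1.37. Hoxa13, which marks the most distal limb, stood at 9.14, 9.06, 9.77 and 10.4 CPM at day 0 and 1.96, 1.76, 2.14 and 2.4 CPM at day 7. Hoxd13 stood at 1.1, 1.85, 1.12 and 0.794 CPM and then 0.101, 0.169, 0.141 and 0.228 CPM. Every day 7 library was below every day 0 library for both, with log2 fold changes of -2.22 ± 0.17 and -2.93 ± 0.51 (SE, n = 4 per group, edgeR adjusted p = 1.87e-09 and 5.1e-05). Tbx4 and Pitx1 fell (-1.63 and -1.4), and Hoxc6 alone was not called (-0.26). With the muscle covariate 15 of the 17 were lower and the median was -1.26. At WT day 14 Hoxa13 ranged from 2.14 to 3.31 CPM.

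**Figure D2:**
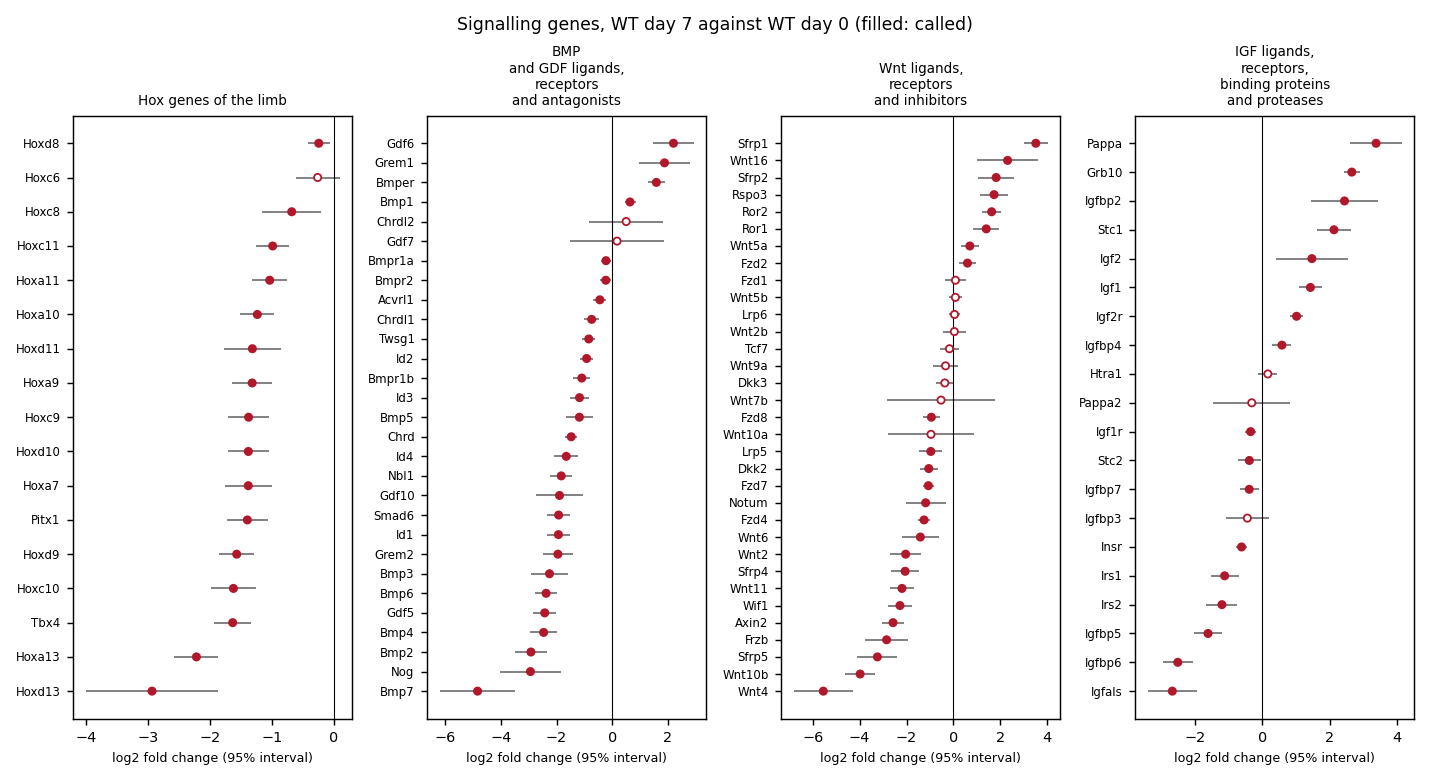
Log2 fold change of day 7 over day 0 with its 95% interval for the limb patterning, BMP, Wnt and IGF lists; filled points were called. In the BMP list 23 of 29 genes lay below 0 and were called, and Pappa rose by 3.38 in the IGF list.

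BMP signalling genes also fell almost throughout. BMP and GDF ligands bind paired receptors that phosphorylate Smads, the Id genes are their classical targets, and secreted antagonists hold them in check. Of 29 genes 23 fell and 4 rose, 14 falling beyond 2-fold, with a median of -1.18. Bmp2 stood at 84, 106, 66.5 and 74.1 CPM at day 0 and 6.32, 11.2, 12.3 and 13.8 CPM at day 7, and Bmp7 at 3.21, 2.85, 4.62 and 4.33 CPM and then 0.0433, 0.22, 0.0884 and 0.171 CPM. The groups did not overlap for either ligand, and the log2 fold changes were -2.92 ± 0.27 and -4.84 ± 0.65 (SE, n = 4 per group, edgeR adjusted p = 4.52e-08 and 2.62e-06). Bmp4 (-2.47), Bmp6 (-2.38) and Gdf5, a ligand of joints and tendons (-2.43), fell as well. The targets Id1, Id2, Id3 and Id4 all fell (-1.94, -0.92, -1.18 and -1.65), as did the inhibitory Smad6 (-1.93). Among antagonists Nog and Chrd fell (-2.94 and -1.48) and Grem1 rose by 1.88. The ligand Gdf6 rose by 2.2 and Bmper, which binds BMPs, by 1.58. With the muscle covariate 19 of the 29 were lower and 3 higher, and the median stayed at -1.18. Of the TGF-beta genes 5 of 19 rose and 6 fell, or 2 and 6 with the covariate, and Tgfb1 was not called (-0.03).

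Wnt signals steer progenitors, in one branch through beta-catenin. Of 33 Wnt ligands, receptors and inhibitors 16 fell and 8 rose, or 16 and 5 with the muscle covariate. Wnt4 stood at 6.36, 4.9, 9.35 and 12 CPM at day 0 and 0.216, 0.237, 0.053 and 0.171 CPM at day 7, Wnt10b fell (-3.98), and the target and feedback inhibitor Axin2 fell (-2.58). Sfrp1, a secreted Wnt binder, stood at 55.5, 54.8, 55.8 and 43.8 CPM at day 0 and 619, 722, 518 and 549 CPM at day 7. The day 7 values were above the day 0 values in every library for Sfrp1 and below them for Wnt4, with log2 fold changes of 3.52 ± 0.24 and -5.55 ± 0.6 (SE, n = 4 per group). Wnt16 rose by 2.31 and Wnt5a, a ligand outside the beta-catenin branch, by 0.7, with its receptor Ror2 at 1.63. In the hedgehog and Notch list 11 of 21 fell and 3 rose, with the hedgehog target Gli1 at -2.24 and the receptor Ptch1 at -1.13.

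Other growth factors went both ways. Of 20 IGF genes 8 rose and 9 fell. Igf1 rose by 1.43 ± 0.17 (SE, n = 4 per group) from 250.3, 247, 261 and 232 CPM to 842, 628, 573 and 616 CPM, and Pappa, whose product cleaves IGF-binding proteins, rose by 3.38. Igfbp5 and Igfbp6 fell (-1.62 and -2.52), Igfbp2 rose by 2.44, and the adaptors Irs1 and Irs2 fell (-1.12 and -1.2). Of 36 genes of the FGF, PDGF, VEGF and EGF families 8 rose and 21 fell. Nrg1, a ligand of the EGF receptor family, stood at 0.183, 0.26, 0.396 and 0.217 CPM at day 0 and 5.61, 11.8, 7.88 and 9.81 CPM at day 7, without overlap (log2 fold change 5.01 ± 0.53, edgeR adjusted p = 1.73e-07, n = 4 per group). Its receptor Erbb3 fell (-0.59), a call lost without WT day 7 replicate 2 (edgeR adjusted p = 0.0653). Hgf rose by 1.97 and Vegfa fell (-1.26), as did the VEGF receptors Kdr and Flt1 (-0.88 and -1.2). Of 15 endothelial markers 7 fell (4 with the muscle covariate) and none rose, with a summed level of 847 to 1050 CPM at day 0 and 648 to 848 CPM at day 7, and their part in the receptor values was not tested. Mstn, myostatin, which is made by muscle fibres, fell (-4.86), and the stress ligand Gdf15 rose by 2.75.

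Inflammatory ligands mostly rose. Of 25 chemokine genes 17 rose and 4 fell, with a median of 2.12, and of 26 genes of interleukin and TNF families 16 rose and 4 fell, or 11 and 2 with the muscle covariate. Il6 stood at 0.459, 0.0488, 0.187 and 0.265 CPM at day 0 and 7.03, 23.4, 9.14 and 17.6 CPM at day 7. Tnfsf11, RANKL, the signal that drives osteoclast formation, stood at 0.245, 0.325, 0.354 and 0.193 CPM and then 8.56, 22.4, 4.61 and 13.3 CPM. Neither gene's groups overlapped, but the day 7 values spread widely, and the log2 fold changes were 6.01 ± 0.76 and 5.41 ± 0.75 (SE, n = 4 per group, edgeR adjusted p = 2.56e-06 and 7.37e-06). Tnfrsf11b, the decoy receptor of RANKL, fell (-1.1), with an edgeR adjusted p of 0.0515 without WT day 0 replicate 2. The osteoclast genes Acp5 and Ctsk rose by 2.36 and 1.74. They stand in a list of osteoblast and osteoclast markers, of which 6 of 12 tested rose, 3 fell and 3 were not called. The summed levels of that list overlapped, at 859 to 1600 CPM at day 0 and 1400 to 1720 CPM at day 7. The part of osteoclasts in these values was not tested. Il1b rose by 4.67 and its antagonist Il1rn by 4.1, whereas Tnf and Il1a were not called (0.36 and 0.54). The neutrophil attractants Cxcl5, Cxcl3 and Cxcl1 rose by 8.04, 4.71 and 3.26. The attractants of eosinophils and T helper cells Ccl24, Ccl11 and Ccl17 fell (-2.62, -1.46 and -3.61). Ptgs2, inducible cyclooxygenase, rose by 3.68, and Hpgd, which degrades prostaglandins, fell (-1.83).

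Macrophage markers rose, while some genes of resident macrophages fell. Of 15 macrophage markers 14 rose and none fell, and their summed level went from 2260 to 2570 CPM at day 0 to between 4820 and 8520 CPM at day 7, lowest in replicate 1. Retnla, a product of resting and alternatively activated macrophages, stood at 126, 84.9, 87.1 and 121 CPM at day 0 and 0.361, 0.288, 0.283 and 0.285 CPM at day 7. Arg1, arginase, stood at 0.367, 0.456, 0.25 and 0.77 CPM and then 8.2, 21.6, 8.2 and 18.1 CPM. The groups were apart for both, in opposite directions, with log2 fold changes of -8.4 ± 0.97 and 4.92 ± 0.76 (SE, n = 4 per group, edgeR adjusted p = 1.26e-06 and 2.36e-05). The resident macrophage receptors Timd4 and Lyve1 fell (-3.78 and -1.24), and Lyve1 is also made by lymphatic vessels, whose markers fell in 7 of 8 cases. Folr2 was not called (0.29, edgeR adjusted p = 0.315), though it was without WT day 7 replicate 1 (adjusted p = 0.0302), Trem2 rose by 2.37 and the interleukin gene Il10 by 3.23. Hmox1, which breaks down haem, rose by 3.66 ± 0.25 (SE, n = 4 per group) while its list of antioxidant and iron genes had 9 of 24 higher and 11 lower, or 5 and 7 with the muscle covariate. Of 13 T and NK cell markers 5 rose, with the T cell receptor subunit Cd3e lower (-1.84) and Cd4, which mouse macrophages can also make, higher (3.39).

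Interferon-responsive genes were higher in 16 of 22 cases and lower in none, with a median of 1.62. Isg15, a ubiquitin-like protein, stood at 2.05, 1.37, 2.06 and 1.03 CPM at day 0 and 9.25, 17.5, 8.08 and 16.8 CPM at day 7. All day 7 libraries were above all day 0 libraries, with replicates 2 and 4 the highest. Its log2 fold change was 3.0 ± 0.67 (SE, n = 4 per group, edgeR adjusted p = 0.000893). Oas1a, a sensor of viral RNA whose close paralogues may share its reads, rose by 3.0 and Irf7, the factor that amplifies the response, by 2.75. The genes of the gamma branch Irf1 and Gbp2 were not called (0.03 and 0.46). The muscle covariate left 11 of the 22 higher and none lower.

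**Figure D3:**
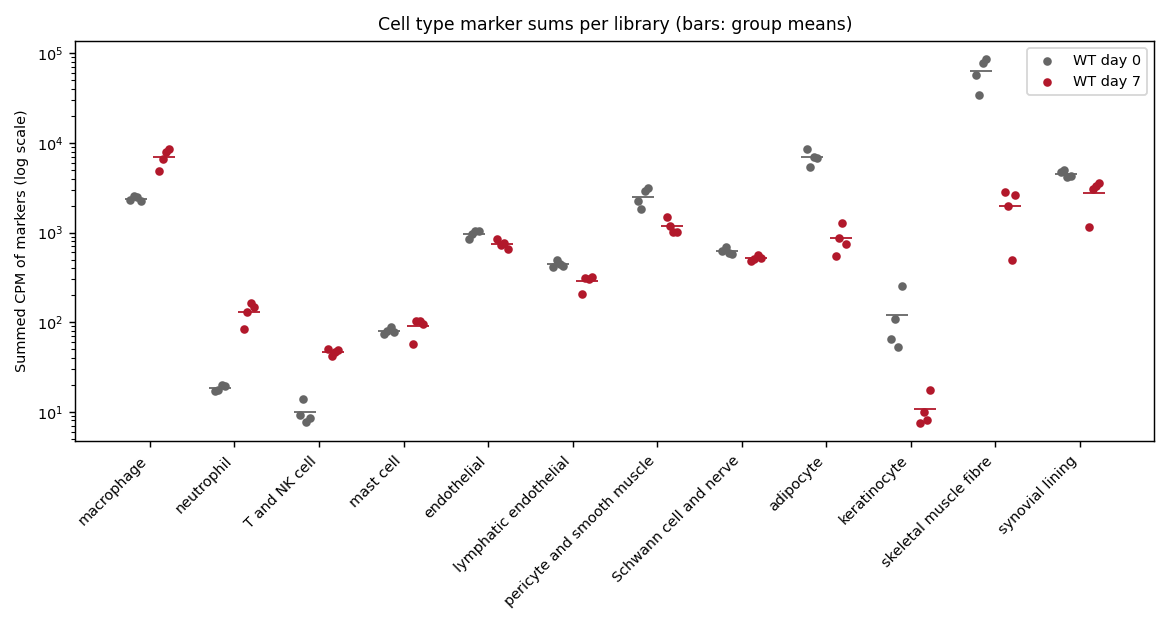
Summed CPM of 12 lists of cell type markers in each of the 8 libraries (points, log axis) for WT day 0 (grey) and WT day 7 (red), with the group means as bars. Muscle fibre and adipocyte sums were lower in every day 7 library, and macrophage and neutrophil sums higher.

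Markers of fat, skin, Schwann cells and muscle fibres mostly fell. All 15 adipocyte markers tested were lower beyond 2-fold, and their summed level went from 5320 to 8620 CPM at day 0 to between 542 and 1290 CPM at day 7. Of 15 keratinocyte markers 11 fell, or 5 with the muscle covariate. Their sums were 65.3, 108, 52.9 and 250 CPM at day 0 and 7.52, 9.89, 8.2 and 17.3 CPM at day 7, highest in replicate 4 of each group. Krt2, a keratin of skin, stood at 1.62, 8.08, 1.85 and 39.9 CPM at day 0, so that WT day 0 replicate 4 held most of its 2298 counts, and had none at day 7. Among 14 Schwann cell markers 9 fell and 4 rose, or 8 and 2 with the covariate, with the lineage factor Sox10 at -2.79. Of 28 muscle fibre markers 24 fell and 3 rose, or 12 and 4 with the covariate, which is built from them. The risers were Tnni1, Tnnc1 and Tnnt1, the slow troponins that immature fibres also make, at 6.04, 5.09 and 2.4. Tnni1 stood at 0.336, 0.374, 0.541 and 0.554 CPM at day 0 and 54, 21.5, 9.26 and 35.3 CPM at day 7, while the fast form Tnni2 fell (-6.15). Of 16 precursor and regenerating muscle markers 9 rose and 3 fell, or 12 and 1 with the covariate, with the embryonic myosin Myh3 at 4.23, Myog at 4.26 and the stem cell factor Pax7 not called (-0.22, or 2.98 and called with the muscle covariate).

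Counts of changed metabolic genes were lower with the muscle covariate, as were those over all genes. Over all genes the higher calls went from 6110 to 3671 and the lower calls from 6023 to 3508. Of 26 glycolysis genes 14 fell and 5 rose, and with the muscle covariate 7 fell and 5 rose. The muscle isoforms Pgam2, Eno3 and Pfkm fell (-4.98, -4.52 and -4.43, or -1.23, -1.26 and -1.56 with the covariate), and the forms of other cells Pgam1, Eno1 and Pfkl rose by 1.58, 1.86 and 1.45. Counts of Pgam1 and Eno1 are uncertain where reads also match pseudogenes. The ratio of Ldha to Ldhb per kilobase rose from between 10.8 and 18.9 to between 37 and 64, and that of Hk2 to Hk1 fell from 1.71 in WT day 0 replicate 2 and 3.08 to 4.73 in the others to between 0.69 and 1.04 (exact permutation p = 0.0286 for each, n = 4 per group, adjusted p = 0.0381). Without any 1 of the WT day 7 libraries, the Hk2 to Hk1 ratio gave an exact permutation p of 0.0571. The ratio tests had no muscle covariate, and the part of muscle RNA in both ratios was not tested. Of 22 genes of fatty acid oxidation 15 fell and 2 rose, and with the covariate 5 fell. Of 24 genes of cholesterol synthesis 11 rose, and 4 rose with the covariate. For building blocks of new protein, 18 of 26 genes of amino acid transport and synthesis rose, among them the proline enzymes Pycr1 and Aldh18a1 at 1.82 and 1.75 and the serine enzyme Psat1 at 1.72, and 11 rose with the covariate. Prodh, which degrades proline, fell (-1.41). Of 26 ribosome assembly genes 20 rose, none beyond 2-fold, and 6 rose with the covariate. Of 24 endoplasmic reticulum stress genes 15 rose, or 9 with the covariate, with the folding enzymes Pdia6 and Pdia4 at 1.49 and 1.45. The stress factors Ddit3 and Atf4 did not rise (-0.5, called lower, and -0.22, not called).

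Clock output genes fell while the core activators were not called. In the circadian clock, Arntl and Clock switch on the Per, Cry and Nr1d genes, which feed back, and drive the output factors Dbp, Tef and Hlf. Of 19 clock genes 12 fell and 1 rose, 7 falling beyond 2-fold, with a median of -1.12. Nr1d1 stood at 315, 307, 264 and 339 CPM at day 0 and 43.1, 45.6, 66.8 and 72.1 CPM at day 7, and Dbp at 88, 79.7, 60.4 and 71.3 CPM and then 16.7, 10.1, 23.8 and 21.2 CPM. Both were lower in every day 7 library, with log2 fold changes of -2.43 ± 0.2 and -2.06 ± 0.39 (SE, n = 4 per group, edgeR adjusted p = 4.55e-09 and 0.000189). Hlf, Tef and Cry2 fell (-2.44, -1.87 and -1.52). Arntl stood at 32.9, 40.1, 50.6 and 43.2 CPM at day 0 and 40.0, 48.9, 34.9 and 46.5 CPM at day 7, and the groups overlapped (0.03). Clock, Per1 and Per2 were not called (-0.21, 0.3 and -0.71), and the one riser was the repressor Nfil3 (0.7), which was not called without WT day 7 replicate 2 (edgeR adjusted p = 0.0584). The labels used here give no hour of collection, so time of day and the groups cannot be told apart. With the muscle covariate 8 of the 19 were lower and none higher.

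Pgr and Greb1, classical targets of the oestrogen receptor, rose from near 0. Pgr, the progesterone receptor (ENSMUSG00000031870, chromosome 9, 8899833 to 8968611, plus strand, GRCm38), had 0, 0, 0.0208 and 0.0241 CPM in the day 0 libraries and 2.71, 2.61, 3.46 and 3.63 CPM in the day 7 libraries. That is 2 counts over the 4 day 0 libraries and 729 over the 4 day 7 libraries, a ratio of 282 with a 95% counting interval of 77.8 to 2333. The interval covers counting error only, since PCR copies of one molecule cannot be recognised in these reads. Greb1, named for its regulation by oestrogen (ENSMUSG00000036523, chromosome 12, 16670615 to 16800886, minus strand, GRCm38), had 0.428, 0.374, 0.50 and 0.337 CPM at day 0 and 11.5, 7.17, 7.85 and 7.95 CPM at day 7. The groups were apart for both genes, and the log2 fold changes were 7.84 ± 0.74 and 4.39 ± 0.48 (SE, n = 4 per group, edgeR adjusted p = 3.67e-08 and 3.43e-07). With the muscle covariate they were 6.62 and 4.77. Esr1, the receptor itself, had 34.4, 31.7, 32.9 and 30.2 CPM at day 0 and 11.8, 12.6, 16.7 and 15.5 CPM at day 7, lower in every library (log2 fold change -1.19 ± 0.13, n = 4 per group, edgeR adjusted p = 1.52e-07).

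The 13 tested genes of the oestrogen and tamoxifen list, with these 3 among them, did not follow one direction: 5 rose, 4 fell and 4 were not called, and with the covariate 5 rose and 2 fell. The membrane receptor Gper1 rose by 1.04, Ebp, a sterol isomerase that binds tamoxifen, by 0.78, and Cyp1b1, which hydroxylates oestrogens, by 2.36. Cyp1a1, a target of the aryl hydrocarbon receptor, fell (-4.51), and with the muscle covariate it was not called (-1.93). Areg and Ccnd1, targets in mammary cells, were not called (-0.16 and 0.3). Areg had means of only 0.17 CPM at day 0 and 0.16 CPM at day 7. Its 95% interval ran from -1.6 to 1.3 on the log2 scale, so a change in either direction cannot be judged. Every group of the series with tamoxifen had Pgr: it ranged from 2.3 to 2.96 CPM at KO day 7, from 2.92 to 5.74 CPM at WT day 14 and from 1.87 to 12.6 CPM at KO day 14. Greb1 ranged from 5.31 to 14.8 CPM, from 6.56 to 31.9 CPM and from 8.74 to 16.9 CPM in the same groups. Those libraries all had the growth stimulus too, so tamoxifen and stimulus cannot be told apart here either.

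**Figure D4:**
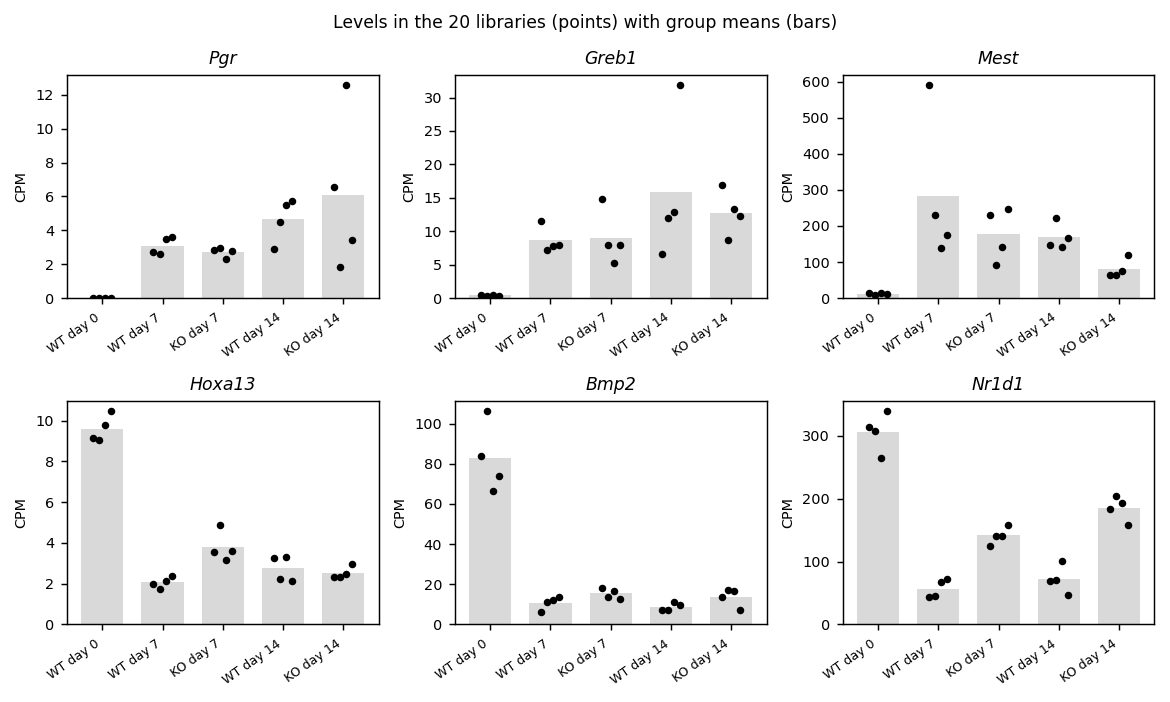
CPM of 6 genes in each of the 20 libraries by group (points), with group means as bars; the axes are linear and start at 0. Pgr and Greb1 were near 0 at WT day 0 and higher in every library of the groups that had tamoxifen and the growth stimulus, and Hoxa13, Bmp2 and Nr1d1 were highest at WT day 0.

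Imprinted and fetal growth genes rose more often than they fell. Of 20, 11 rose, 3 fell and 6 were not called. Mest stood at 14.1, 8.61, 14.2 and 12.7 CPM at day 0 and 590.4, 232, 139.5 and 174 CPM at day 7. H19, a long non-coding RNA transcribed beside Igf2, stood at 34.4, 21.5, 40.5 and 52.7 CPM and then 1190, 748, 680.5 and 572 CPM. Replicate 1 was the highest day 7 library for both, no groups overlapped, and the log2 fold changes were 4.52 ± 0.47 and 4.42 ± 0.5 (SE, n = 4 per group, edgeR adjusted p = 3.31e-07 and 7.96e-07). Igf2 rose by 1.47, a call lost without WT day 7 replicate 1 (edgeR adjusted p = 0.0635), and Hmga2, a chromatin protein of fetal cells, by 3.17. Rian, Mirg and Meg3, non-coding RNAs of one imprinted cluster on chromosome 12, rose by 2.4, 2.04 and 1.36, and its coding member Rtl1 by 2.44, while Dlk1 of the same cluster was not called (0.13). Nnat, neuronatin, fell (-3.27), and Peg3 and Cdkn1c were not called (0.36 and 0.19). Dnm3os, the non-coding precursor of a pair of fibroblast microRNAs, rose by 1.84, and Nctc1 and Dio3os fell (-5.42 and -3.12). Among all genes annotated as lincRNA, 202 of 782 were higher and 239 lower.

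Of 20 genes used as references in PCR assays, 11 rose, 3 fell and 6 were not called, beside 64.1% called over all genes. Only 2 passed beyond 2-fold, both higher, against 20.1% of all genes. With the muscle covariate 8 rose and 1 fell. Actb, beta-actin, stood at 1098, 1181, 984 and 986 CPM at day 0 and 2328, 2640, 2643 and 2421 CPM at day 7, without overlap (log2 fold change 1.24 ± 0.11, edgeR adjusted p = 1.28e-08, n = 4 per group). Gusb rose by 1.7, Hprt by 0.49 and B2m by 0.89, and Gapdh and Sdha fell (-0.89 and -1.17). With the muscle covariate Gapdh was not called (0.1). The groups of Gapdh overlapped, at 51.9 to 112 CPM at day 0 and 42.1 to 55.9 CPM at day 7. Tbp, Polr2a and Eef2 were not called (0.18, -0.01 and -0.19).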

How the data were processed

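RNA of plantaris tendon was sequenced in 20 libraries, labelled in 5 groups of 4. The submitters' processing notes name FastQC, STAR, edgeR and the build mm10. How reads were assigned to genes, on which annotation and with what strand setting is not given in the sources used here, nor are versions, so antisense and overlapping genes are uncertain. The authors deposited raw counts per gene for 24885 genes. They also deposited a table of log2 fold changes and p-values of this comparison, in which 9472 of 13263 genes shared with the fit here were called in both, all with the same sign.

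Genes were filtered with filterByExpr (18918 kept), scaled by TMM and tested with edgeR 4.0.16 (R 4.3.3), using glmQLFit with robust estimation over all 20 libraries without covariates, the contrast WT day 7 minus WT day 0, and glmTreat for changes beyond 2-fold. Intervals are 95%. Ratios used exon lengths of GENCODE vM21 and exact permutation. Alternatives were other scalings and filters, DESeq2 1.42.0, limma 3.58.1 (voom), the 8 libraries alone, a replicate block, a muscle covariate, and leaving out each library. Counts were also simulated with equal means in all groups, except for 100 genes changed 2-fold and 100 changed 4-fold at WT day 7. The changed genes were drawn from the better counted ones. The test recovered 78 of the 100 changed 2-fold and 96 of the 100 changed 4-fold. It called 10 unchanged genes, with 18435 genes fitted in all. Far more genes differed in the real data, so these rates may not hold there. The gene lists, markers and genes named were chosen with earlier results of these data known. The rule for naming allowed leading genes by p, fold change and level beyond 2-fold, leading non-coding RNAs and steady genes. From each list it allowed up to 10 called members of smallest p and up to 4 uncalled. Not all of these are named. Beside these, 32 genes named in the text were chosen after their values were seen, for their role.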

Additional observations from a re-analysis of the deposited data

Results flagged for a closer look

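Dixon's test was applied to 156 groups of 4 values. These were per-library levels named above, the ratios, the marker sums, total counts, muscle and mitochondrial shares, and positions on the leading principal axes. In 9 of the groups 1 library lay far from the other 3, about as many as chance gives at 1 in 20. Tnmd was at 370 CPM in WT day 7 replicate 1 against 152 to 180 CPM in the others. The same library was lowest for the summed markers of mast cells (57.3 CPM against 96.6 to 103 CPM) and of lymphatic endothelium (206 CPM against 304 to 321 CPM). The chondrocyte marker sum was lowest in WT day 7 replicate 2, at 1807 CPM against 2131 to 2158 CPM. At day 7 the highest Col3a1 library was at 37370 CPM against 34210 to 34490 CPM, and the highest Retnla library at 0.361 CPM against 0.283 to 0.288 CPM. At day 0 the lowest Sfrp1 library was at 43.8 CPM against 54.8 to 55.8 CPM, and the lowest Dclk1 library at 13.4 CPM against 17.4 to 17.8 CPM. Krt2 was at 39.9 CPM in WT day 0 replicate 4 against 1.62 to 8.08 CPM in the others.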

How the results depend on the processing

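Apart from the muscle covariate, the alternatives run kept the counts of called genes, and of genes beyond 2-fold, within 1.5 times of those reported, and no gene called under them had the opposite sign. With the muscle covariate, 7179 genes were called (3671 higher and 3508 lower) and 1890 passed beyond 2-fold (1004 higher and 886 lower). Of these calls 6956 were also made without it, and 20 had the opposite direction. Among named genes called with or without the covariate, the log2 fold changes of Ankrd1 (2.30), Pax7 (2.98), Gapdh (0.10) and Tpm2 (0.16) changed sign under it. Some genes called in neither fit changed sign too. A further 15 of 258 named genes lost their call in the same direction. Because the score itself separates the groups, the fit with it has less to compare, and the cause of each loss was not tested. The Hk2 to Hk1 ratio ranged from -2.207 to -1.716 (log2) when each library was left out, and its exact p was 0.0571 without any 1 WT day 7 library. Upper-quartile scaling moved the median of all genes to 0.05. Replicate numbers did not pair the libraries: same-numbered libraries correlated at 0.028, -0.067, -0.07 and 0.087, and a replicate block gave 6156 higher and 6071 lower calls. Depth limits Pgr at day 0 to 2 counts, so the size of its rise is known only within a wide interval.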
